A study of Rattus norvegicus with 12 samples.

Results

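The genes that copy DNA and supply its nucleotides were followed in the mammary glands of ovariectomized (ovx) rats. The list held 45 genes, sorted by role into the replicative helicase, the DNA polymerases and primase, the sliding clamp and its loader, origin licensing, nucleotide synthesis, single-strand binding, flap removal and ligation, and chromatin assembly. Each gene was represented by the probe set that carried its symbol alone, and by the brightest such probe set where there were several. This gave 41 genes of the 14506 gene symbols measured in the series, and all 41 lay above the filter on low intensities. Mcm3, Mcm4, Pole2 and Chaf1a were not analysed here.

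RNA from whole mammary glands was hybridized to Affymetrix rat gene arrays, 1 array per rat, with 3 rats in each of 4 groups. All rats were female Lewis rats whose ovaries had been removed at 10 weeks of age, and treatment began 14 days later. The groups received 17β-estradiol (E2) together with 3-methylcholanthrene (3-MC), E2 alone, 3-MC alone, or the DMSO vehicle. E2 was given at 4 μg per kg, and 3-MC, an aromatic pollutant and ligand of the aryl hydrocarbon receptor (AHR), at 15 mg per kg, in 3 daily treatments with the gland taken 24 hr after the last (the sample labels give 48 h of treatment). Because ovx controls have little estrogen of their own, vehicle glands stand for an unstimulated gland and not for a cycling one. Values are linear signal intensities as deposited. RNA of a whole gland pools epithelium, fat, connective tissue and immune cells, so fewer cells of a type and less RNA per cell cannot be told apart.

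The treatments were checked with genes outside the list. Pgr, the progesterone receptor and a classical estrogen target, rose to an intensity of 785 ± 58.8 in E2 glands, against 38.3 ± 7.25 in vehicle glands (SD, n = 3 each; limma, adjusted p = 8.9e-06). Cyp1b1, an AHR target, read 553, 101 and 588 in 3-MC rats 1 to 3, against 161, 127 and 211 in vehicle rats, and 154, 560 and 407 in E2 + 3-MC rats, against 97.7, 88.3 and 107 in E2 rats. 3-MC rat 2 therefore lay below every vehicle rat, and E2 + 3-MC rat 1 lay within the vehicle range, so each comparison's counts of the 41 genes are also given without these 2 rats. Array medians ran from 85.7 to 109.5, and any 2 arrays correlated at 0.934 to 0.985 over probe sets.

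Replication begins when origin recognition complexes, Cdc6 and Cdt1 load the Mcm2-7 ring onto DNA, and Cdc45 and the GINS complex then turn the ring into a working helicase. Primase and the polymerases copy the strands behind it, held by the PCNA clamp that replication factor C opens and closes, while ribonucleotide reductase and thymidylate synthase supply deoxynucleotides. Most of these genes are transcribed as cells pass from G1 into S phase, when E2F factors are released from the retinoblastoma protein, and estrogen is a well-known stimulus of epithelial division in the mammary gland.

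RefSeq promoters of the GRCr8 assembly, 250 bases before to 50 after the annotated start, were found for 36 of the 41 genes and searched on both strands. Gins4, Orc1, Cdc6, Rrm2 and Rpa3 had none in the table used here. An E2F motif, TTTCGCGC or TTTGGCGC, was found in 12 of the 36 (33.3%), against 0.792% of 33469 promoters of all genes. The NF-Y motif CCAAT was found in 22 (61.1%, against 37.5% of all) and the AHR response element core GCGTG in 21 (58.3%, against 29.7%). The cell cycle homology motif TTTGAA was found in 2 (5.56%, against 18.3%), and the palindromic estrogen response element in none of the 36, against 0.0269% of all. Of the 36 upstream windows, 26 overlap the annotated span of their own gene, so the windows of 5 of the 10 others are shown whole, and only 30 bases of Mcm7, the gene that passed the test with E2. They are chosen to show an E2F match beside CCAAT in helicase genes, and the lack of these E2F letters in the clamp, reductase and clamp loader genes Pcna, Rrm1 and Rfc5. The 12 genes with an E2F match were Mcm2, Mcm5, Mcm6, Mcm7, Gins1, Pola1, Pole, Rfc3, Cdt1, Gmnn, Tyms and Lig1. The windows shown do not stand for whole roles. The loader gene Rfc3 held a match, and the helicase genes Cdc45, Mcm10, Gins2 and Gins3 held none. Capitals mark E2F and CCAAT matches in either orientation, and TTTCGCGC and TTTGGCGC overlap in Mcm5 and Mcm6, as do TTTCGCGC and CCAAT in Mcm7.
Mcm7 (chr12:22163211-22163240, minus strand): ggtgacgacgTTTCGCGCCAATttcggttg
Mcm6 (chr13:42404353-42404602, minus strand): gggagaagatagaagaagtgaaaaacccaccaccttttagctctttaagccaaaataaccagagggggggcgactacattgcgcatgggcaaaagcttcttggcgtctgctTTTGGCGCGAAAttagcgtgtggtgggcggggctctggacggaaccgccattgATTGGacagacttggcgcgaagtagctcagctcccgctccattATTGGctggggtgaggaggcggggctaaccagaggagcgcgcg
Mcm5 (chr19:13488563-13488812, plus strand): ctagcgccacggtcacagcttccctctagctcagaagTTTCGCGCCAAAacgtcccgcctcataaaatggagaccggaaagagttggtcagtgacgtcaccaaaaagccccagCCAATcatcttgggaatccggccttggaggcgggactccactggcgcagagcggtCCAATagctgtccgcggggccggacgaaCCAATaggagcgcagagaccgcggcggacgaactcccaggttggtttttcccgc
Pcna (chr3:139955821-139956070, minus strand): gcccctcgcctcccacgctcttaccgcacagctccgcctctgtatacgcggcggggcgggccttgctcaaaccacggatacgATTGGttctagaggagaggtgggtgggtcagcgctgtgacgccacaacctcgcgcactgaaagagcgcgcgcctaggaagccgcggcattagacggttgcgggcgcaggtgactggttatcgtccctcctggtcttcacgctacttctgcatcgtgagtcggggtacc
Rrm1 (chr1:166235654-166235903, plus strand): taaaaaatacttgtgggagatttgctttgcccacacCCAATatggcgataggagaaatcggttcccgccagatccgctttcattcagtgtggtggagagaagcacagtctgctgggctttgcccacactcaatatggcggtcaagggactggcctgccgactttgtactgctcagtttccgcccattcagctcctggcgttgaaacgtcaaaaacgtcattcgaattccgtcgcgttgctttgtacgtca
Rfc5 (chr12:44868072-44868321, plus strand): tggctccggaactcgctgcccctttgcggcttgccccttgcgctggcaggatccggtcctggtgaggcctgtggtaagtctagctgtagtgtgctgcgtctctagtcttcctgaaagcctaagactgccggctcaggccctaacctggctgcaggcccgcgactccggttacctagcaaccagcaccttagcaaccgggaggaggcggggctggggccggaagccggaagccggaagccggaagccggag
The Mcm7 E2F match begins 52 bases upstream of the start, the overlapping Mcm6 matches 139 and 135 bases upstream, and the Mcm5 matches 213 and 209 bases upstream. A match describes letters and was not tested as a binding site.

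With E2, 40 of the 41 genes had a higher mean on the log2 scale than with vehicle, but only Mcm7 passed the test, which asked for an adjusted p under 0.05 over 23371 probe sets and at least a 1.5-fold difference. That is 1 of 41, beside 1.3% of all tested probe sets that rose with E2, and none of the 41 fell, beside 0.287% of all. The study had already listed Mcm7 among cell cycle genes raised by E2 on these same arrays. The median log2 change of the 41 was 0.52 and ran from -0.02 for Rfc5 to 2.04 for Rrm2, beside a median of 0.02 over all probe sets, of which 53.8% were positive. At an unadjusted p under 0.05, 21 of the 41 were higher with E2, beside 6.82% of all, and in 14 of the 41 (34.1%) every E2 rat lay above every vehicle rat, beside 10.1% of all. A 1.5-fold difference on the log2 scale was reached by 15 of the 41, but the share of all probe sets that reached it was not counted. Without 3-MC rat 2 and E2 + 3-MC rat 1, which enter the shared estimate of the spread, 4 genes passed with E2 (Mcm7, Prim1, Rrm2 and Uhrf1), beside 1.51% of all that rose, and the same 4 passed without 3-MC rat 2 alone, beside 1.53%. Without vehicle rat 3, Mcm7, Mcm2, Pcna and Rrm2 passed, beside 1.18% of all, and without vehicle rat 1, vehicle rat 2 or any of the E2 rats none did.

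**Figure D1:**
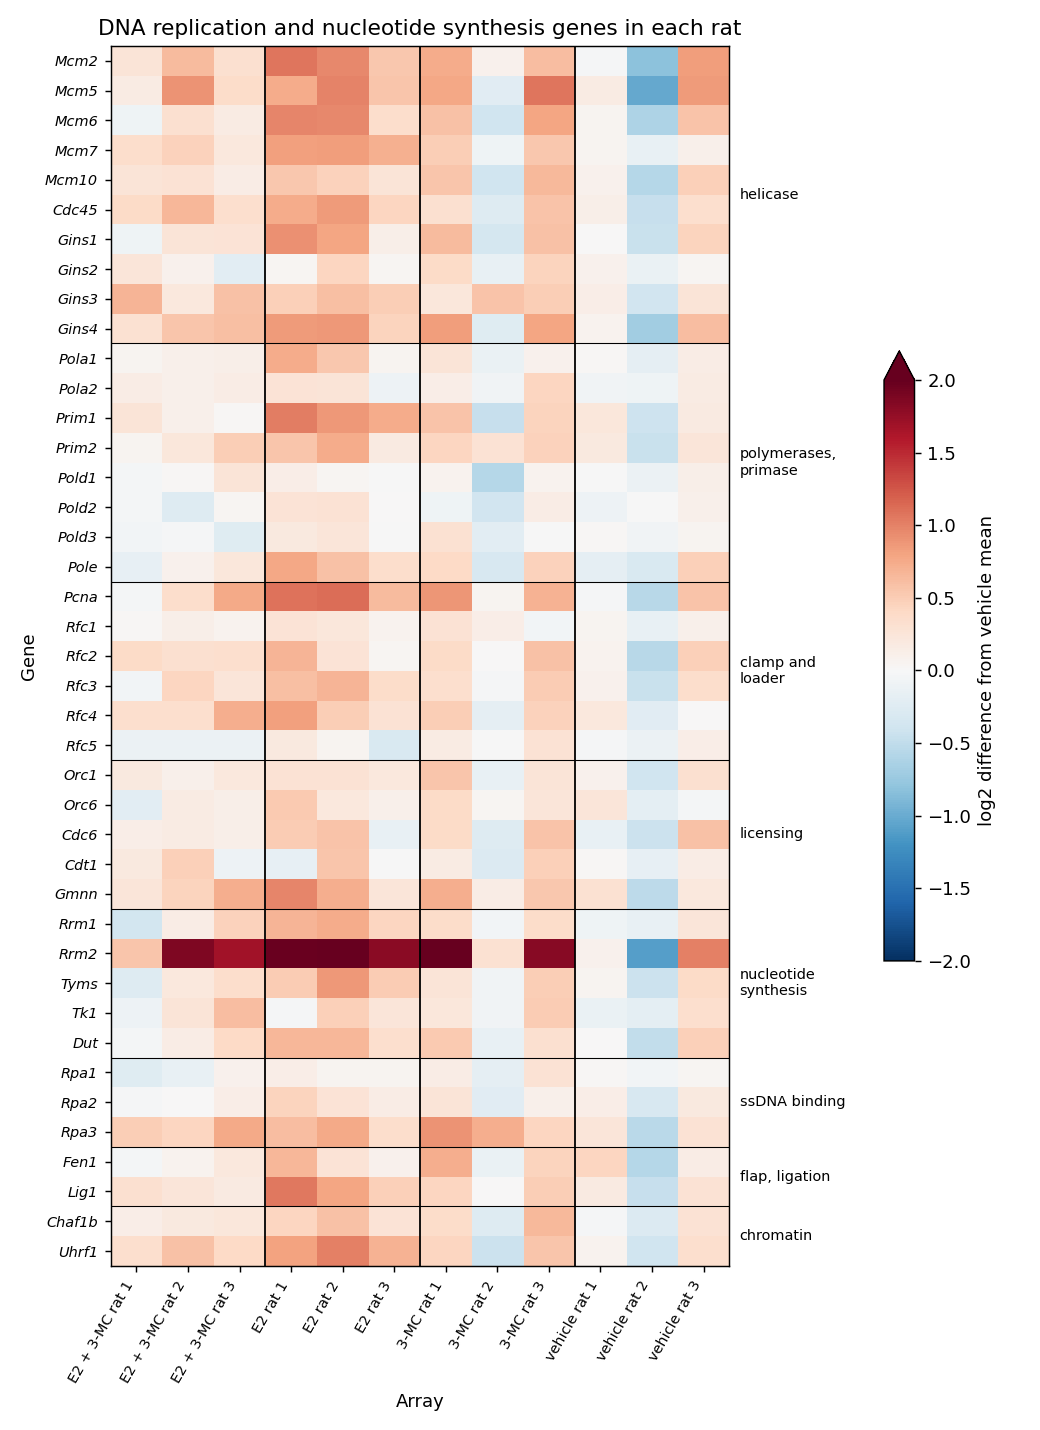
Color shows the log2 difference of each of the 41 genes (rows, grouped by role) from its vehicle mean in each of the 12 arrays (columns). E2 rats 1 and 2 are red in most rows, vehicle rat 2 is blue in nearly every row, and Rrm2 reaches the end of the scale, which stops at 2.

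The replicative helicase unwinds the parental strands, and its 10 genes had a median log2 change of 0.70 with E2, the largest median of the 8 groups. All 10 means on the log2 scale were higher in E2 glands, 7 of them by at least 1.5-fold, a share not counted over all probe sets. An unadjusted p under 0.05 was reached by 6, beside 6.82% of all probe sets. Mcm7, a subunit of the Mcm2-7 ring, read 275, 279 and 255 in E2 rats 1 to 3, against 154, 132 and 161 in vehicle rats. Every E2 rat lay well above every vehicle rat, and the rats within a group differed little. The rise was 1.73-fold, a log2 change of 0.79 with an SE of 0.16 (limma, adjusted p = 0.0283). Without vehicle rat 1, vehicle rat 2 or any of the E2 rats it did not pass, with an adjusted p of at most 0.138.

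Mcm2, another subunit of the ring, had a larger log2 change than Mcm7, 0.86 with an SE of 0.32, and did not pass (adjusted p = 0.274). It read 194, 178 and 129 in E2 rats, against 81.7, 40.3 and 162 in vehicle rats. The highest vehicle rat lay above the lowest E2 rat, and vehicle rat 2 lay far below the other two. Mcm5 and Mcm6 had log2 changes of 0.76 each, and their vehicle rats were spread in the same way. Mcm10, which helps start unwinding, changed by 0.42 (adjusted p = 0.627). Cdc45, which joins the ring when it is activated, changed by 0.68 with no overlap between the groups (adjusted p = 0.213). The 4 GINS genes, whose proteins form a fixed complex, ran from 0.17 for Gins2 to 0.72 for Gins4, with Gins3 at 0.52 and Gins1 at 0.61. Gins2 read 66.6, 91.5 and 65.9 in E2 rats, against 68.7, 57.4 and 66.5 in vehicle rats, and these ranges overlapped (adjusted p = 0.812).

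Among the DNA polymerases and primase the median log2 change with E2 was 0.32 over 8 genes, and the change was uneven. Prim1, the catalytic subunit of primase that lays down RNA primers, stood highest. It read 222, 198 and 179.7 in E2 rats, against 122, 71.6 and 117 in vehicle rats, and no rats of the 2 groups overlapped. The fitted rise was 1.84-fold, a log2 change of 0.88 with an SE of 0.24 (limma, adjusted p = 0.104), which did not pass. Prim2, the primase partner subunit, changed by 0.49, and Pola1, the catalytic subunit of the polymerase that extends the primer, by 0.44. Pole, the catalytic subunit of the leading-strand polymerase, changed by 0.57 (adjusted p = 0.332). The genes of polymerase delta, which copies the lagging strand, had log2 changes of 0.06 for Pold1, 0.19 for Pold2 and 0.14 for Pold3, and Pola2, a partner subunit of Pola1, had 0.14. Pold1 read 92.1, 85.0 and 81.9 in E2 rats, against 82.0, 74.4 and 90.9 in vehicle rats, and the vehicle range covered nearly all of the E2 range (adjusted p = 0.941).

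The sliding clamp and its loader had a median log2 change of 0.43 with E2. Pcna, the clamp that holds polymerases on the template, read 729, 740.5 and 526 in E2 rats, against 330.1, 224 and 502 in vehicle rats. The groups did not overlap, but vehicle rat 3 came within a few percent of E2 rat 3. The log2 change was 0.94 with an SE of 0.29, a fitted rise of 1.92-fold (limma, adjusted p = 0.153). The 5 loader subunits differed among themselves, from 0.55 for Rfc3 and 0.53 for Rfc4, in both of which every E2 rat lay above every vehicle rat, through 0.33 for Rfc2 and 0.19 for Rfc1, to -0.02 for Rfc5. Rfc5 read 411, 373 and 287 in E2 rats, against 354, 330.1 and 395 in vehicle rats, with overlapping ranges (adjusted p = 0.979). Its 95% interval ran from -0.33 to 0.29 on the log2 scale.

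Origin licensing genes load the helicase before S phase, and their median log2 change with E2 was 0.28, the smallest of the 8 groups. None of the 5 genes separated E2 from vehicle rats. Gmnn, which encodes geminin, the inhibitor of Cdt1 that blocks a further round of licensing, had the largest change. It read 155, 128 and 87.0 in E2 rats, against 91.7, 45.2 and 85.7 in vehicle rats, and E2 rat 3 lay inside the vehicle range. Its log2 change was 0.64 with an SE of 0.24 (adjusted p = 0.283). The genes that load the ring changed less, with 0.31 for Cdc6, 0.28 for Orc6, 0.26 for Orc1 and 0.13 for Cdt1. Cdt1 read 52.6, 96.3 and 60.6 in E2 rats, against 61.5, 52.7 and 68.6 in vehicle rats, and E2 rat 1 was level with the lowest vehicle rat while E2 rat 2 was above all of it (adjusted p = 0.897).

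Nucleotide synthesis genes had a median log2 change of 0.62 with E2 over 5 genes. Rrm2, the regulated small subunit of ribonucleotide reductase, had the largest change of all 41. It read 388, 495 and 341 in E2 rats, against 92.5, 31.5 and 190.4 in vehicle rats. Every E2 rat lay far above every vehicle rat, yet vehicle rats 2 and 3 differed about as widely. The fitted rise was 4.10-fold, a log2 change of 2.04 with an SE of 0.51, and did not pass (limma, adjusted p = 0.0745). Rrm1, the large subunit of the same enzyme, changed by 0.62 (adjusted p = 0.184), and Tyms, which makes thymidylate, by 0.63 (adjusted p = 0.240), both without overlap. Dut, which clears dUTP, changed by 0.55. Tk1, the thymidine salvage kinase, changed by only 0.23 (adjusted p = 0.770). It read 54.4, 82.5 and 68.1 in E2 rats, against 48.8, 46.0 and 73.7 in vehicle rats, and E2 rats 1 and 3 lay inside the vehicle range.

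Of the remaining genes, Lig1, the ligase that seals Okazaki fragments, read 534, 439.9 and 352 in E2 rats, against 283, 176 and 308 in vehicle rats. The groups did not overlap, and the log2 change was 0.77 with an SE of 0.21 (adjusted p = 0.0976). Fen1, which trims the flap before ligation, changed by 0.34. It read 183, 135 and 117 in E2 rats, against 152, 68.5 and 122 in vehicle rats, and vehicle rat 1 exceeded E2 rats 2 and 3 (adjusted p = 0.695). Uhrf1, which brings maintenance methylation to new DNA, read 96.8, 114 and 88.3 in E2 rats, against 51.8, 32.6 and 64.7 in vehicle rats, again without overlap, with a log2 change of 0.84 (adjusted p = 0.114). Chaf1b, a subunit of the histone chaperone that follows the fork, changed by 0.43. It read 112, 128 and 99.6 in E2 rats, against 77.7, 63.1 and 101 in vehicle rats, and vehicle rat 3 lay just above E2 rat 3 (adjusted p = 0.438).

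The 3 subunits of replication protein A, which coats exposed single strands as a trimer, differed in their log2 changes with E2. The changes were 0.57 for Rpa3, 0.29 for Rpa2 and 0.08 for Rpa1. Rpa3 read 156, 174 and 127 in E2 rats, against 117, 61.8 and 121 in vehicle rats, without overlap (adjusted p = 0.264). Rpa1 read 246, 231 and 232 in E2 rats, against 226, 213 and 229 in vehicle rats. These Rpa1 groups did not overlap either, but E2 rat 2 and vehicle rat 3 were almost level (adjusted p = 0.897).

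**Figure D2:**
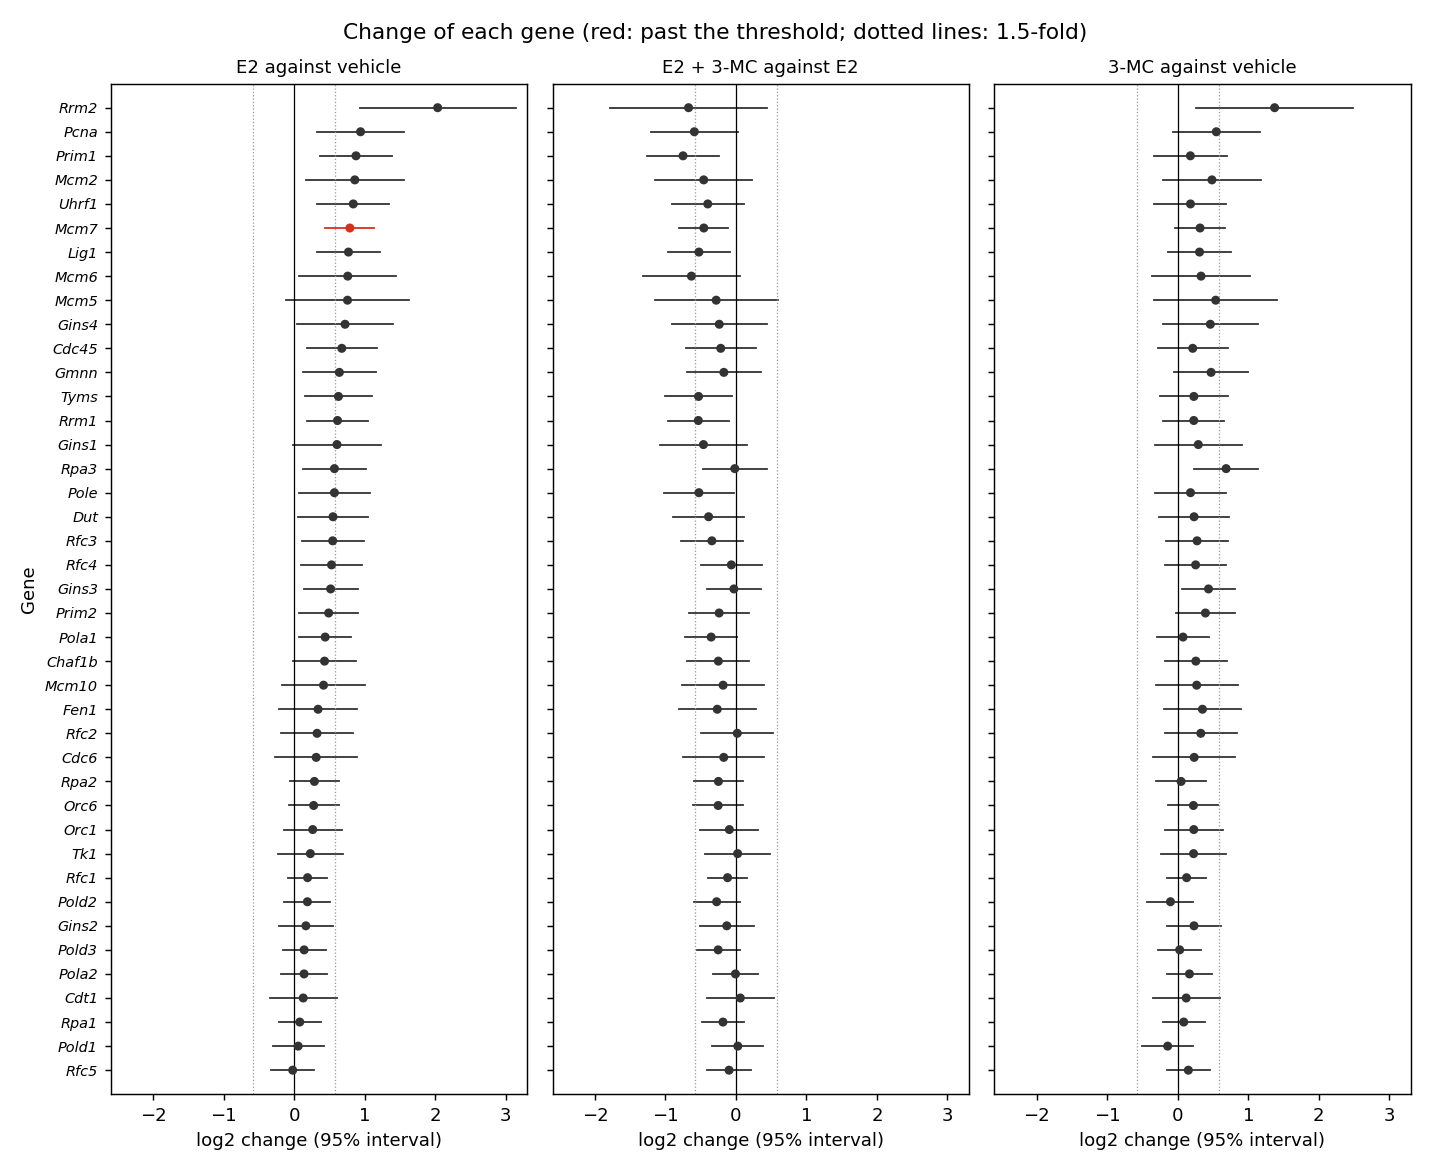
Points show the log2 change of each gene and bars its 95% interval from limma for E2 against vehicle, E2 + 3-MC against E2 and 3-MC against vehicle, with genes ordered by the change with E2. Mcm7 in the E2 panel is the only red point, and most points of the middle panel lie left of 0.

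Whether 3-MC changed these genes in E2-treated glands was asked by setting E2 + 3-MC against E2. None of the 41 passed, as none of all 23371 probe sets did (0%). The log2 mean was lower in E2 + 3-MC glands for 37 of the 41, with a median log2 change of -0.25, whereas the median over all probe sets was 0.05 and 59.1% of them were positive. At an unadjusted p under 0.05, 6 of the 41 were lower and none was higher, beside 2.77% of all lower and 5.99% higher, and in 10 of the 41 every E2 + 3-MC rat lay below every E2 rat, beside 5.93% of all. Without 3-MC rat 2 and E2 + 3-MC rat 1, 37 of the 41 were lower, with a median of -0.20. Over all probe sets 45% were lower, with a median of 0.03. None of the 41 passed, while 0.552% of all probe sets rose and 0.0471% fell. The unadjusted count was then 3 (Mcm7, Prim1 and Lig1), beside 3.62% of all, and 10 of the 41 were separated, beside 12.6% of all. Prim1 had the lowest log2 change, -0.75 with an SE of 0.24 (adjusted p = 0.452). It read 123, 110.2 and 103 in E2 + 3-MC rats 1 to 3, against 222, 198 and 179.7 in E2 rats. All E2 + 3-MC rats fell far below the E2 range and close to vehicle rats 1 and 3.

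Mcm7 read 194, 209.8 and 174 in E2 + 3-MC rats, against 275, 279 and 255 in E2 rats, a log2 change of -0.45 with an SE of 0.16 (adjusted p = 0.480). These rats lay below every E2 rat and above every vehicle rat. Lig1 read 313, 298 and 284 in E2 + 3-MC rats, against 534, 439.9 and 352 in E2 rats (log2 change -0.52, adjusted p = 0.519). Rrm1, Tyms and Pole, at -0.53, -0.53 and -0.52, were the other genes with an unadjusted p under 0.05. Rrm2 read 134, 355 and 311 in E2 + 3-MC rats, against 388, 495 and 341 in E2 rats, and these overlapped (log2 change -0.67, adjusted p = 0.746). E2 + 3-MC rat 1, in which Cyp1b1 was within the vehicle range but above every E2 rat, had the lowest Rrm2 of its group. Pcna read 324, 431 and 574 in E2 + 3-MC rats, against 729, 740.5 and 526 in E2 rats, with E2 + 3-MC rat 3 above E2 rat 3 (log2 change -0.59, adjusted p = 0.584).

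By role and with all rats, the median log2 change of E2 + 3-MC against E2 was -0.53 for nucleotide synthesis and -0.26 for the helicase. It was -0.26 for polymerases and primase, -0.17 for licensing and -0.11 for the clamp and its loader. The nucleotide synthesis level was -0.11, 0.21 and 0.47 in E2 + 3-MC rats 1 to 3. Without 3-MC rat 2 and E2 + 3-MC rat 1, its genes changed less, by -0.35 for Tyms, -0.31 for Rrm1, -0.28 for Dut, -0.27 for Rrm2 and 0.21 for Tk1. The order of roles thus depends on the rats kept. The next values are again with all rats. The 4 genes with a positive log2 change were Cdt1 at 0.06, Pold1 at 0.03, Tk1 at 0.02 and Rfc2 at 0.02. Rpa3, at -0.02, and Pola2, at -0.01, also stood near 0. Uhrf1, at -0.40, and Chaf1b, at -0.25, were below E2 in every rat without passing. The difference between roles was not tested.

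**Figure D3:**
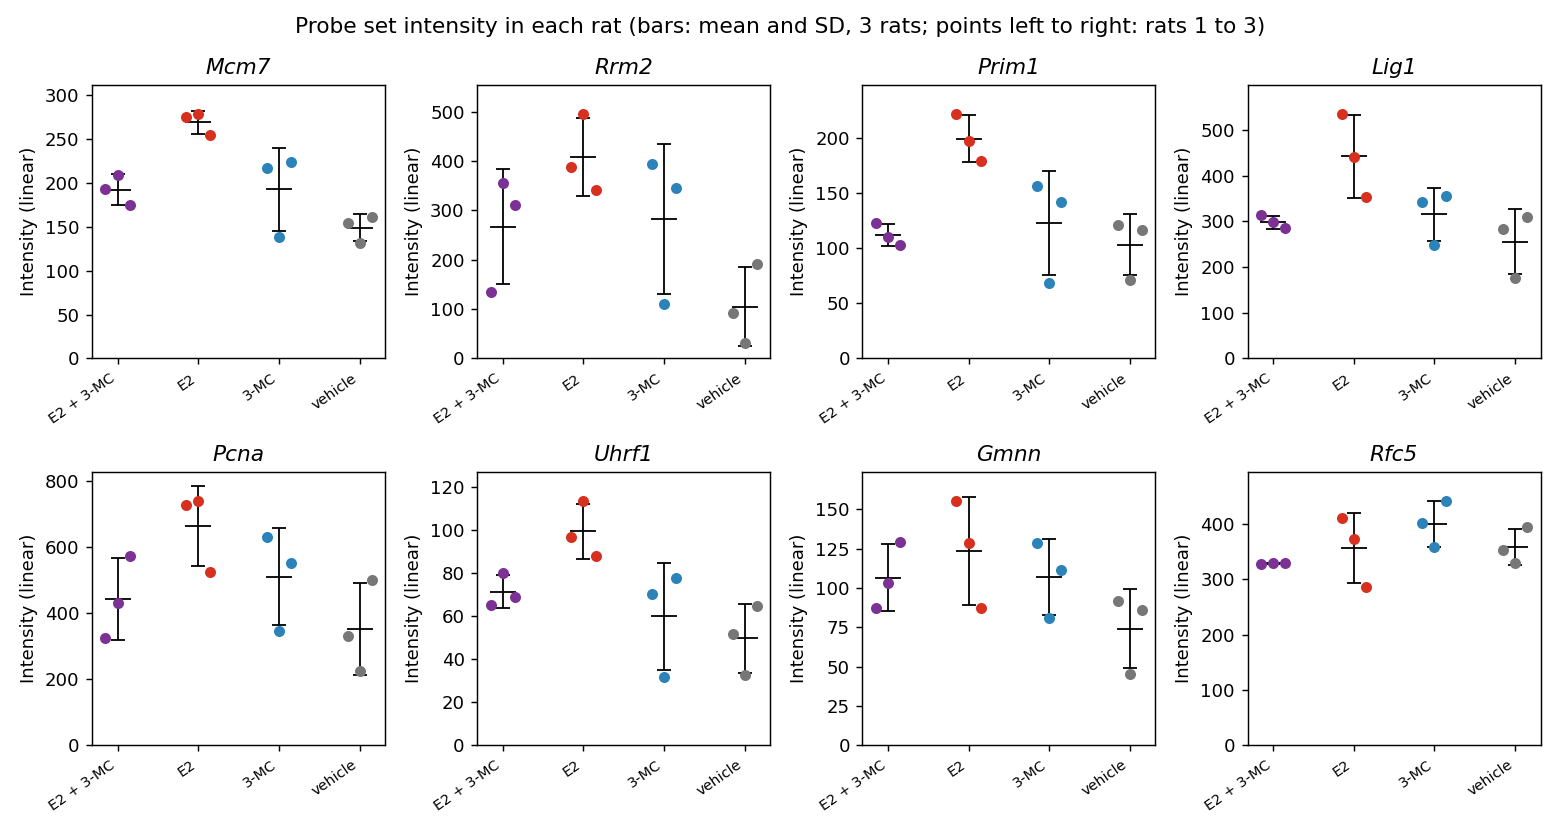
Points are the linear intensity in each rat for 8 genes, with the mean and SD of 3 rats, in the order E2 + 3-MC, E2, 3-MC and vehicle. Mcm7, Rrm2, Prim1, Lig1, Pcna and Uhrf1 show every E2 rat above every vehicle rat, whereas Gmnn and Rfc5 overlap.

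The interaction, which asks if the effect of E2 differed with and without 3-MC, was negative for 40 of the 41 genes, with a median of -0.51 on the log2 scale, beside -0.01 over all probe sets. None passed, as none of all probe sets did (0%). At an unadjusted p under 0.05, 9 of the 41 were negative (Mcm7, Lig1, Rrm2, Pcna, Prim1, Rrm1, Tyms, Rpa3 and Prim2), beside 2.83% of all. The largest was Rrm2 at -2.04 with an SE of 0.73, and Mcm7 had the smallest unadjusted p, at -0.77 with an SE of 0.23 (limma, adjusted p = 0.970). Without 3-MC rat 2 and E2 + 3-MC rat 1, 40 of the 41 were negative, beside 62.4% of all. In that fit 15 had an unadjusted p under 0.05, beside 3.87% of all, and none passed.

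What E2 did in 3-MC-treated glands was read from E2 + 3-MC against 3-MC. The median log2 change was -0.06, from -0.27 for Fen1 to 0.26 for Uhrf1. Of the 41, 29 were negative, beside a median of 0.02 and 53.6% positive over all probe sets. None passed, beside 0.111% of all probe sets, and none had an unadjusted p under 0.05, beside 2.81% of all higher and 2.22% lower. Mcm7 read 194, 209.8 and 174 in E2 + 3-MC rats, against 217, 139 and 224 in 3-MC rats, and 3-MC rat 2 was the lowest of the 6. Prim1 read 123, 110.2 and 103 in E2 + 3-MC rats, against 157, 68.8 and 143 in 3-MC rats, with wide overlap. Without 3-MC rat 2 and E2 + 3-MC rat 1, 35 of the 41 were negative, with a median of -0.16 beside -0.06 over all probe sets, of which 64.5% were negative. Gins2 alone then had an unadjusted p under 0.05, beside 1.98% of all lower, and in 18 of the 41 the E2 + 3-MC rats lay below the 3-MC rats, beside 19.2% of all.

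Against vehicle, E2 + 3-MC gave a median log2 change of 0.17, with 37 of the 41 positive. Over all probe sets the median was 0.07 and 64.9% were positive. None of the 41 passed the test, beside 0.163% of all probe sets. The groups were separated in 4 of the 41, where all E2 + 3-MC rats lay above all vehicle rats, beside 10.5% of all. These were Mcm7, Rfc4, Rpa3 and Uhrf1. Without 3-MC rat 2 and E2 + 3-MC rat 1, 36 of the 41 were positive, beside 60.5% of all. In that fit 6 were separated, beside 15.4% of all, and none passed. Rrm2 had the largest log2 change, 1.37 with an SE of 0.51 (adjusted p = 0.449). It read 134, 355 and 311 in E2 + 3-MC rats, against 92.5, 31.5 and 190.4 in vehicle rats, so that E2 + 3-MC rat 1 lay inside the vehicle range and the other 2 rats above it.

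3-MC alone gave a median log2 change of 0.23 against vehicle, with 39 of the 41 positive, beside a median of 0.06 and 63.5% positive over all probe sets. None of the 41 passed, as none of all probe sets did (0%). Rrm2, Rpa3 and Gins3 were higher at an unadjusted p under 0.05, beside 3.06% of all. Rrm2 read 393, 109.5 and 344 in 3-MC rats, against 92.5, 31.5 and 190.4 in vehicle rats (log2 change 1.37 with an SE of 0.51, adjusted p = 0.920). 3-MC rat 2 lay between vehicle rats 1 and 3. Rpa3 read 194, 171 and 135 in 3-MC rats, against 117, 61.8 and 121 in vehicle rats, without overlap (log2 change 0.69, adjusted p = 0.920). Between these 2 groups rats of the same number deviated together over all probe sets, and 25 of the 41 genes were higher with 3-MC in every same-numbered pair (61.0%), beside 23.5% of all probe sets. The labels state no pairing, and the pairs were taken from these same measurements, so this count is a description and not a test. In pairs 1 and 3 alone, 31 of the 41 were higher (75.6%), beside 36.8% of all. Without 3-MC rat 2 and E2 + 3-MC rat 1, all 41 were positive for 3-MC against vehicle, beside 72.5% of all. The median was 0.44 beside 0.11 over all probe sets. In that fit 16 had an unadjusted p under 0.05, beside 8.3% of all, while none passed.

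The genes also moved together from rat to rat inside the E2, 3-MC and vehicle groups, and less uniformly inside the E2 + 3-MC group. The level of a rat was taken as the median, over the 41 genes, of its log2 distance from the mean of the vehicle rats. By this measure E2 + 3-MC rats 1 to 3 stood at 0.14, 0.21 and 0.23, E2 rats at 0.61, 0.59 and 0.26, 3-MC rats at 0.39, -0.14 and 0.48, and vehicle rats at 0.06, -0.40 and 0.29. E2 rat 3 thus stood below vehicle rat 3, and 3-MC rats 1 and 3 above all E2 + 3-MC rats. The level over all tested probe sets was 0.10, -0.01 and 0.11 in E2 + 3-MC rats and 0.08, 0.05 and -0.06 in E2 rats. It was 0.19, -0.05 and 0.04 in 3-MC rats and 0.06, -0.10 and 0.04 in vehicle rats. Vehicle rat 2 had the lowest intensity of its group in 40 of the 41 genes, beside 58.6% of all probe sets, and 3-MC rat 2 in 38, beside 55.5% of all. E2 rat 3 was the lowest E2 rat in 37 of the 41, beside 56.2% of all. Vehicle rat 2, 3-MC rat 2 and E2 rat 3 also had the lowest array medians of their groups, 85.7, 88.1 and 90.6. The part of array brightness in this pattern was not tested. Among E2 + 3-MC rats, rat 1 was lowest in 25 of the 41, rat 2 in 7 and rat 3 in 9, whereas over all probe sets rat 2 was lowest most often (54% of all, beside 23.2% for rat 1). The within-group SD on the log2 scale had a median of 0.18 over the 41 genes in E2 + 3-MC glands, 0.21 in E2 glands, 0.35 in 3-MC glands and 0.37 in vehicle glands, beside 0.16, 0.14, 0.20 and 0.18 over all probe sets in the same order.

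The levels by role kept the same pattern of rats. The helicase level was 0.78, 0.85 and 0.44 in E2 rats, against 0.08, -0.51 and 0.46 in vehicle rats. The nucleotide synthesis level was 0.66, 0.74 and 0.43 in E2 rats, against 0.01, -0.44 and 0.38 in vehicle rats, and did not overlap. The polymerase and primase level was 0.41, 0.41 and 0.03 in E2 rats, against 0.01, -0.15 and 0.15 in vehicle rats. The clamp and loader level was 0.64, 0.38 and 0.18 in E2 rats, against 0.07, -0.33 and 0.24 in vehicle rats. The licensing level was 0.51, 0.55 and 0.11 in E2 rats, against 0.09, -0.40 and 0.22 in vehicle rats. In 4 of these 5 roles, E2 rat 3 lay below vehicle rat 3.

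Markers of other cells moved alongside. The myeloid list, 8 genes including Cd68 and Csf1r, stood at 0.05, 0.89 and 0.86 in E2 + 3-MC rats, -0.54, -0.47 and -0.22 in E2 rats, 0.92, -0.26 and 0.94 in 3-MC rats and -0.21, -0.54 and 0.70 in vehicle rats. Vehicle rat 3 and 3-MC rats 1 and 3 were thus high in both myeloid and replication genes, whereas E2 rats were low in the myeloid level and high in replication genes. The rats left out above, 3-MC rat 2 and E2 + 3-MC rat 1, had the lowest myeloid levels of their groups. The myeloid genes did not all run the same way. With E2 against vehicle, 7 of the 8 were negative and none of these had an unadjusted p under 0.05, while Cd14, a receptor for bacterial lipopolysaccharide, rose. It read 1983, 1519 and 1743 in E2 rats, against 853, 917 and 1132 in vehicle rats (log2 change 0.84, adjusted p = 0.0370). With the myeloid level as a covariate, 16 of the 41 genes passed for E2 against vehicle, among them Mcm2, Mcm5, Mcm6, Mcm7, Pcna, Prim1, Rrm2 and Uhrf1, beside 1.97% of all probe sets that rose in the same model. In that model 3 were lower for E2 + 3-MC against E2 (Pole, Pcna and Rrm2), beside 0.231% of all, and 2 had a negative interaction past the test (Pcna and Rrm2), beside 0.257% of all. This covariate was chosen after seeing the data and is itself measured on the same arrays. Skeletal muscle genes ranged from -3.95 to 2.26 over the 12 rats. They stood at 1.78, 2.26 and -3.95 in vehicle rats and at 1.16, 1.77 and -3.72 in 3-MC rats. Their part in the likeness of same-numbered rats of these groups was not tested. With the muscle level as a covariate Mcm7 alone passed with E2 (limma, adjusted p = 0.0359), beside 1.29% of all that rose.

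Luminal epithelial genes, 18 in all and including Krt8, Krt18 and Epcam, stood at 0.90, 0.87 and 0.58 in E2 rats, against -0.08, 0.12 and -0.01 in vehicle rats. With E2, 10 of the 18 rose, beside 1.3% of all probe sets. The list includes Areg, Prlr, Cdh1, Cldn3 and Cldn7, which the study had already reported as raised by E2 on these arrays. The rise of such genes need not reflect luminal cell content. The luminal genes stood at 0.53, 0.21 and 0.56 in E2 + 3-MC rats, below every E2 rat. For E2 + 3-MC against E2, all 18 luminal genes were negative, as 37 of the 41 replication genes were. The luminal median log2 change was -0.35, and none passed. At an unadjusted p under 0.05, 8 were lower, beside 2.77% of all, and 9 of 18 were separated, beside 5.93% of all.

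Fibroblast genes stood at -0.69, -0.51 and -0.26 in E2 rats, against -0.11, -0.09 and 0.29 in vehicle rats. None of 8 passed, and 5 were lower at an unadjusted p under 0.05, beside 4.89% of all. Of 10 adipocyte genes, Lpl and Pparg fell with E2 (limma, adjusted p = 0.0289 and 0.0157), beside 0.287% of all. In 7 of the 10 every E2 rat lay below every vehicle rat. That held for 8.04% of all probe sets kept by the filter without 3-MC rat 2 and E2 + 3-MC rat 1. All 7 endothelial genes were lower with E2 at an unadjusted p under 0.05, beside 4.89% of all probe sets, with a median log2 change of -0.48, and none passed. For E2 + 3-MC against E2, all 8 lymphocyte genes were positive, with a median of 0.88, and the myeloid median was 1.02 with 7 of 8 positive. Of these, 6 lymphocyte and 5 myeloid genes were higher at an unadjusted p under 0.05, beside 5.99% of all, and none passed. The part of cell composition in the replication changes was not tested. The covariate fits cannot separate it, because the myeloid level itself differed between the groups compared. Its mean was -0.41 in E2 rats, 0.60 in E2 + 3-MC rats and -0.02 in vehicle rats. The luminal level was not fitted.

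A list of 25 mitosis genes, expressed at the end of the same cell cycle, differed from the replication genes in its counts. It stood at 1.25, 1.51 and 1.45 in E2 rats, against 0.04, -0.37 and 0.38 in vehicle rats, with a wide gap between the groups. With E2, 22 of the 25 rose, with a median log2 change of 1.40. This stood beside 1 of the 41 replication genes, with a median of 0.52, and 1.3% of all probe sets. For E2 + 3-MC against E2, the mitosis median was -0.74, and none passed. In 21 of the 25 every E2 + 3-MC rat lay below every E2 rat, beside 5.93% of all. The mitosis list was added after its values were seen. The study had already listed some of its genes, such as Ccnb1, Plk1 and Bub1, as raised by E2 on these arrays. The difference between the lists thus depends on that choice, and it was not tested.

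**Figure D4:**
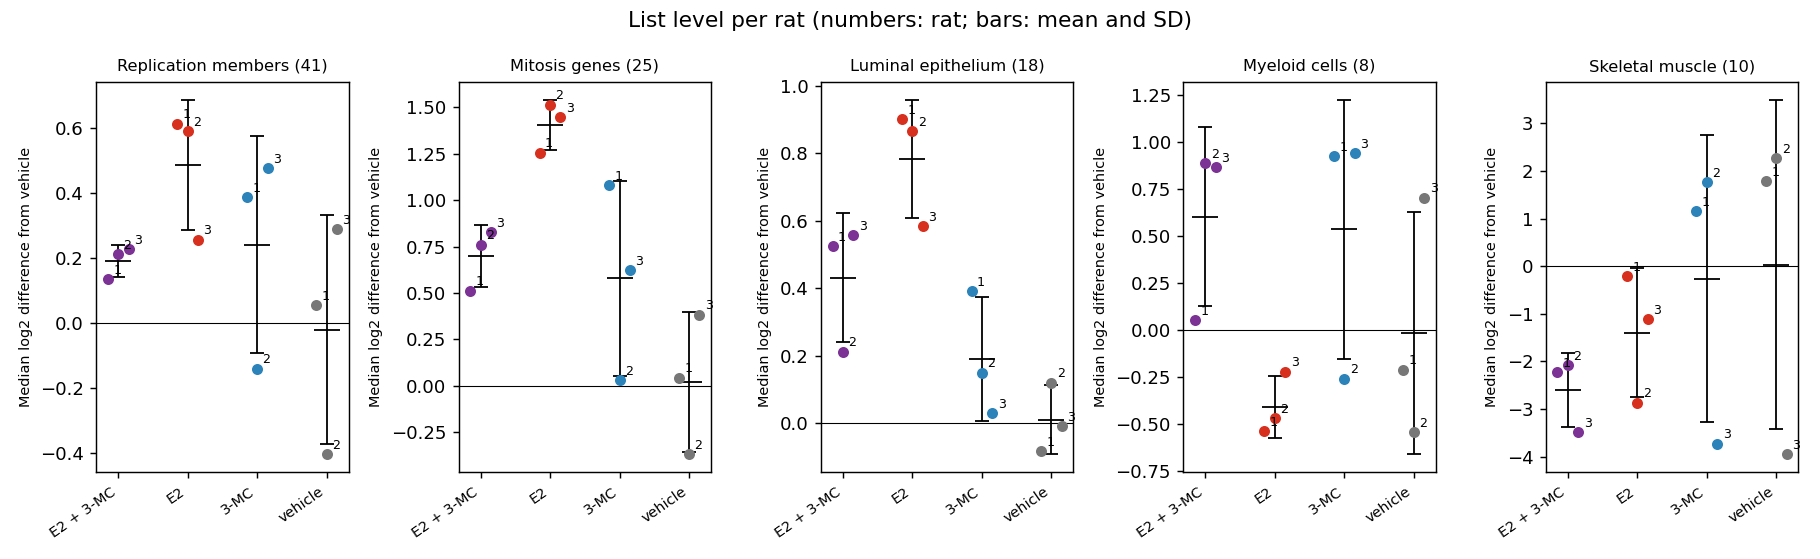
Points show the level of a gene list in each rat, defined as in the text, with rat numbers, means and SD over 3 rats. Replication genes overlap between E2 and vehicle rats, mitosis and luminal genes do not, and vehicle rat 2 is low in replication, mitosis and myeloid genes.

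Other genes of the same processes, outside the 45, were read from lists of origin and firing, fork, nucleotide synthesis and chromatin replication genes. Of 59 listed, 44 were measured and 43 tested, and none passed in any of the 6 comparisons. With E2 the median log2 change of the 43 was 0.26, with 11 higher and 1 lower at an unadjusted p under 0.05, where 6.82% of all probe sets were higher and 4.89% lower. The 8 chromatin replication genes had a median of 0.53 and were all positive. Asf1b, a histone chaperone, changed by 1.08 (adjusted p = 0.0552), and Hat1, which acetylates new histones, by 0.76. The 12 fork genes had a median of 0.31, the 15 nucleotide synthesis genes 0.21 and the 8 origin and firing genes 0.09. Mcm8, a relative of the ring subunits that acts in recombination, ran the other way, at -0.60 with E2 against vehicle and -0.95 for E2 + 3-MC against 3-MC (adjusted p = 0.130). These genes are named after their values were seen.

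The 12 genes with an E2F match in their promoter window had a median log2 change of 0.64 with E2 against vehicle and -0.46 for E2 + 3-MC against E2. The 24 genes with a window but no match had 0.33 and -0.23. The ranges overlapped, from 0.13 for Cdt1 to 0.86 for Mcm2 among the 12 and from -0.02 for Rfc5 to 0.94 for Pcna among the 24, and the difference was not tested.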

How the data were processed

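Total RNA of 12 rat mammary glands was labeled with the Affymetrix whole-transcript protocol and hybridized, 1 array per rat. Per the labels, the authors summarized the probes to linear intensity values with PLIER in Expression Console. Their methods add quantile normalization and a baseline shift, which the deposited intensity values do not show, since array medians differ. Genome build and annotation of the summary are not given in the sources used here. Probe sets were named by the platform annotation: 15310 of 29214 had 1 symbol, 323 had several and 13581 had none.

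Intensities were transformed as log2(intensity + 16). The 23371 probe sets with a mean above the 20th percentile were fitted with limma 3.58.1 (R 4.3.3), all 4 group means together. Tests were two-sided with Benjamini-Hochberg adjustment over all of them, and a call needed an adjusted p under 0.05 and a 1.5-fold difference. Fold changes were taken from the log2 changes and are not ratios of mean intensities. On this scale they understate changes of dim genes. The fit was also run on simulated data, with independent noise and the same spread in all groups. Those data cannot show how the calls fare here, where genes move together and the groups differ in spread. Depth has no counterpart on arrays, and 3 rats per group limit the precision. Promoters are RefSeq's and were matched by Entrez ID. Figures were drawn with matplotlib 3.10.9.

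The members and lists were chosen with earlier results of these data known. Values per rat are given for members past the test and for the member of each role with the smallest change with E2. Those with the largest change per role were added after their values were seen, as was the mitosis list. Rats of vehicle and 3-MC with the same number deviated together over probe sets (r = 0.341, 0.442 and 0.564), and the numbers were treated as pairs for these 2 groups, a choice that rests on the measurements and not on the labels. No other combination of groups had every r above 0.1.

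Alternatives were pseudocounts of 1 and 32, no filter or one at the 50th percentile, quantile normalization, median centring, 1 or the mean of all probe sets per gene, limma on 2 groups, with trend, array weights or a replicate block, the methods' t-test, other fold thresholds, and leaving out each rat. Muscle and myeloid covariates and the removal of rat pairs were added after seeing the data.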

Additional observations from a re-analysis of the deposited data

Results flagged for a closer look

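Rrm2 had a probe set that the selection rule did not use, because it was dimmer than the chosen one. With E2 against vehicle it changed by 2.0 on the log2 scale and passed the test (limma, adjusted p = 0.0383), while the chosen probe set changed by 2.04 and did not (adjusted p = 0.0745). The unused probe set read 190, 303 and 163 in E2 rats 1 to 3, against 36.6, 16.6 and 90.6 in vehicle rats. For E2 + 3-MC against E2 both were negative, at -0.72 for the unused and -0.67 for the chosen probe set.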

How the results depend on the processing

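For 3-MC against vehicle, E2 + 3-MC against vehicle and E2 + 3-MC against 3-MC, the count of genes past the test stayed at 0 under every alternative, including the replicate block fitted to vehicle and 3-MC alone. For E2 against vehicle the count was 1, and 3 with quantile normalization or with arrays centred on their medians (Mcm7, Prim1 and Lig1), 4 with array weights (Mcm7, Prim1, Rrm2 and Uhrf1), 2 with the replicate block (Mcm7 and Prim1), and 0 with the methods' t-test or at least 2-fold. It was 0 to 4 when 1 rat was left out: 0 without vehicle rat 1, vehicle rat 2 or any E2 rat, and 4 without vehicle rat 3 or 3-MC rat 2. Among settings added after seeing the data it was 16 with the myeloid covariate, 2 without vehicle rat 2 and 3-MC rat 2, and 4 without 3-MC rat 2 and E2 + 3-MC rat 1. For E2 + 3-MC against E2 the count of 0 became 1 with limma on 2 groups (Prim1, adjusted p = 0.0183, beside 0.452 in the model of 4 groups) and 3 with the myeloid covariate, and for the interaction it became 2 with that covariate (Pcna and Rrm2). The cause was not tested. The median log2 change of the 41 with E2 ran from 0.31 to 0.65 over the alternatives, and for E2 + 3-MC against E2 from -0.66 to -0.19. That for E2 + 3-MC against 3-MC ran from -0.25 to 0.03.

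Log2 changes were followed under the alternatives for the 17 genes named by rule, in E2 against vehicle and E2 + 3-MC against E2, and not for the other 24. Among the 17, those that turned sign had changes near 0 with all rats and never passed the test. For E2 + 3-MC against E2 they were -0.048 for Pold1, -0.025 for Cdt1 and -0.073 for Tk1 with quantile normalization, -0.031 for Pold1 and for Tk1 with median centring, 0.0057 for Rpa3 with the mean of all probe sets, and -0.056 for Cdt1 and -0.094 for Tk1 with array weights. With 1 rat left out at a time, E2 + 3-MC against E2 ran from -0.060 to 0.087 for Pold1, -0.083 to 0.27 for Cdt1, -0.15 to 0.21 for Tk1, -0.13 to 0.075 for Rpa3 and -0.24 to 0.0071 for Rfc5, and E2 against vehicle from -0.0011 to 0.12 for Pold1, -0.12 to 0.12 for Rfc5 and -0.080 to 0.28 for Cdt1.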
